A study of Rattus norvegicus with 20 samples.

Results

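Whether a cafeteria diet altered gene expression in blood cells differently in LEW and WKY rats was tested with the diet by strain interaction. It is the difference between CAF and STD in WKY rats minus the same difference in LEW rats. All 20 of the 20 arrays and all 28826 probe sets, called transcripts here, entered the comparison. The rats were males of the inbred strains LEW (LEW/Crl) and WKY (WKY/NCrl), 15 weeks old. They were fed standard chow (STD) or the cafeteria diet (CAF) for 7 weeks, with 5 rats in each of the 4 groups, and all were fasted for 9 h. RNA of each rat was hybridised to 1 Rat Gene 1.0 ST array. By the labels these were mononuclear cells of peripheral blood from a density gradient, and by the methods monocytes that had adhered to plastic. An inbred strain stands for 1 genotype, so a difference between the strains was measured here for that pair of genotypes.

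A cafeteria diet offers rats palatable human foods rich in fat and sugar, and it makes them eat more and gain weight. Blood monocytes take up lipids and respond to nutrients and to bacterial products, and they can adopt an inflammatory state in obesity. A positive interaction means that the CAF minus STD difference was higher in WKY than in LEW rats, and a negative one that it was lower. It carries no direction for either strain alone, so the diet effect in each strain stands beside it. The values are log2 signals, and an interaction of 1 stands for a 2-fold difference between the diet effects.

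The array medians ran from 6.8 to 6.9, and the correlations between arrays from 0.985 to 0.997. Defining transcripts of several cell types were present in all groups. The group means were 13.24 to 13.42 for Lyz2 and 12.63 to 12.79 for Cd14 of monocytes, 12.17 to 12.37 for Cd3e of T cells, 12.06 to 12.32 for Cd79b of B cells, 12.86 to 13.18 for Pf4 of platelets and 13.04 to 13.66 for haemoglobin Hbb of red cells. The preparation therefore held RNA of more than monocytes. Transcripts of heat shock proteins and chaperones stood apart in 4 arrays, with a mean over 21 genes of 10.61 in LEW STD rat 2, 10.14 in LEW STD rat 3, 10.20 in WKY STD rat 1 and 10.39 in LEW CAF rat 2. The other 16 arrays lay between 9.55 and 9.75, and none of the 4 was a WKY CAF array.

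No transcript passed an adjusted p of 0.05 for the interaction in limma, which is 0% of those tested. The smallest adjusted p was 0.515, shared by 5 transcripts, namely Krtap5-8, Ncoa3, Grhl3 and 2 that are unnamed here. At an unadjusted P under 0.05 there were 1714 transcripts, 894 higher and 820 lower in WKY rats, where the threshold alone gives 1441. At an unadjusted P under 0.01 there were 376, or 1.3%, where the threshold alone gives 288. Of these 376, 237 were positive, or 0.822% of all transcripts, and 139 were negative, or 0.482%. Without the 4 arrays of the highest heat shock mean there were 392 at this P, 226 positive and 166 negative, of which 208 were among the 376, and again none passed the adjusted p. Leaving out WKY STD rat 1 alone raised the count to 583.

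The differences were small. The median size among the 376 was 0.28, or 1.21-fold, 24 exceeded 1.5-fold (14 positive and 10 negative), and 2 exceeded 2-fold. The median standard error of an interaction was 0.10, against 0.07 for a diet effect in 1 strain. The 95% interval lay within 1.5-fold in either direction for 91.6% of transcripts and within 2-fold for 98.7%. It lay wholly beyond 1.5-fold for 1 transcript, the unnamed probe set 10812148, chosen after its values were seen. Its group means were 8.45 ± 0.84 (SD, n = 5) in LEW STD, 7.93 ± 0.83 in LEW CAF, 6.43 ± 1.32 in WKY STD and 8.23 ± 0.21 in WKY CAF rats. Its interaction of 2.33 (95% interval 0.82 to 3.84, adjusted p = 0.717) was the largest among the 376, with a wide spread between the rats of 3 of the groups.

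The diet effect itself passed P under 0.01 for 762 transcripts in WKY rats (2.64%) and for 307 in LEW rats (1.07%), and none passed the adjusted p in limma in either strain, where the smallest was 0.187 and 0.685. Both effects passed P under 0.01 for 14 transcripts in the same direction and for 3 in opposite directions. Across all transcripts the signs agreed for 52.5%, and the effects, which share no array, had a Pearson correlation of 0.09, given as a description because transcripts are not independent. Of the 376 transcripts, 232 were up in WKY and down in LEW rats and 130 were the other way round. Only 8 were up in both strains and 6 down in both, a division into opposite signs that the contrast itself favours. The WKY effect passed P under 0.01 for 178 of the 376, the LEW effect for 64, among them 3 with both, and 137 passed in neither strain.

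**Figure D1:**
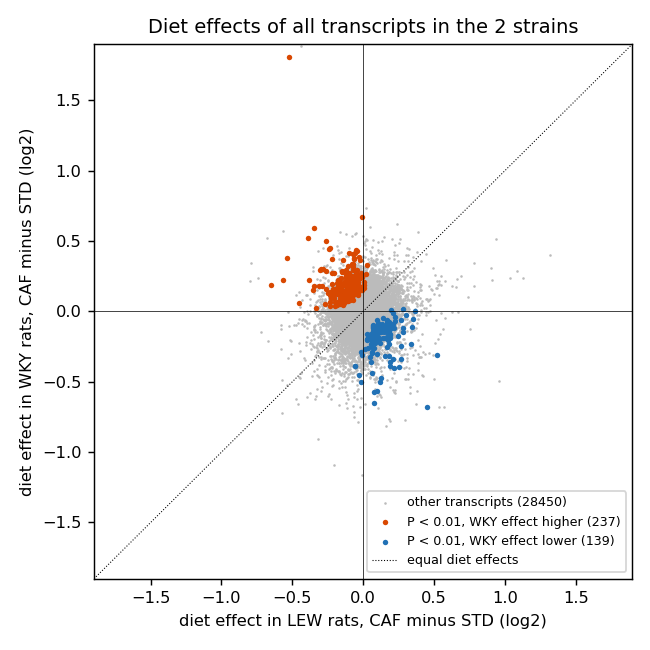
Each point is 1 transcript, with its CAF minus STD difference in LEW rats on the x axis and in WKY rats on the y axis, both in log2. The 237 transcripts with a higher effect in WKY rats at an unadjusted P under 0.01 (orange) and the 139 with a lower one (blue) lie mostly in the quadrants of opposite sign. The dotted diagonal marks equal effects.

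The balance of directions changed with signal and with scaling. Of the positive transcripts, 39 (16.5%) lay below the median mean signal of 6.86, against 78 (56.1%) of the negative ones. In the dimmest of 5 equal bins of transcripts by mean signal 15 were positive and 23 negative, and in the brightest 109 were positive and 20 negative. The median interaction was −0.02 below the median signal and 0.02 above it. Positive transcripts made up 63.0% of the 376, but 77.9% (327 of 420) when each array was centred on its median, 49.8% with the monocyte marker mean as a covariate and 51.1% with the neutrophil marker mean. With centred arrays, 51 of 93 negative and 61 of 327 positive transcripts lay below the median signal, and with quantile normalisation 56 of 123 and 61 of 222.

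**Figure D2:**
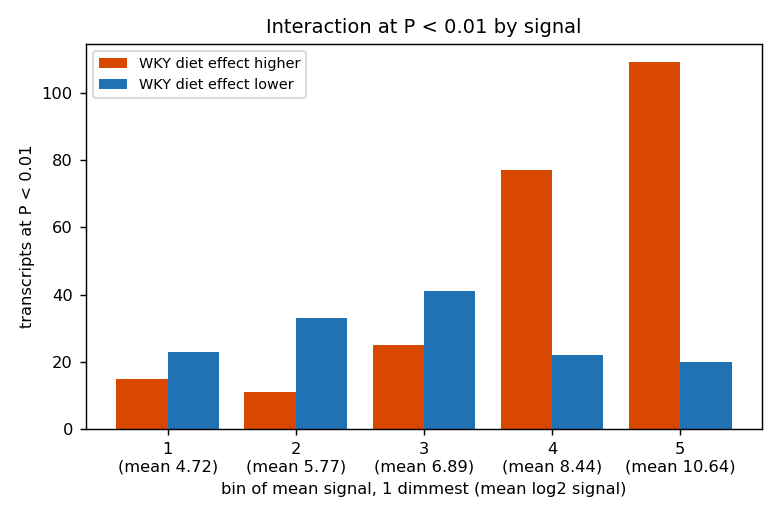
Bars count the transcripts with an interaction at an unadjusted P under 0.01 in each of 5 equal bins of mean log2 signal, for a diet effect that was higher (orange) or lower (blue) in WKY rats. Lower effects outnumbered higher ones in the 3 dimmer bins, and higher effects did so in the 2 brighter bins, with 109 against 20 in the brightest.

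Of the 376 transcripts, 230 had 1 gene symbol, 158 positive and 72 negative. With 1 probe set for each of 14497 genes, 153 genes (1.06%) were positive and 67 (0.462%) negative at P under 0.01. The genes below are those of the smallest P and of the largest difference. None passed an adjusted p of 0.05 in limma. The adjusted p was 0.515 for Krtap5-8, Ncoa3 and Grhl3 and 0.707 or above for every other gene named below, so each is described by its values and the standard error (SE) of its interaction. Those of the next paragraphs, up to the genes that the study discusses, were all at an unadjusted P under 0.01. They were picked by P or size from these same values, which favours groups that do not overlap. Such separation only describes the values and is not stated for every gene. Its share over all transcripts is not given here.

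Among the positive genes were regulators of signalling and transcription. Ncoa3 (probe set 10842315), a coactivator of nuclear receptors, measured 11.02, 11.10, 11.04, 10.97 and 10.96 in the WKY STD rats and 11.25, 11.28, 11.24, 11.26 and 11.22 in the WKY CAF rats. The LEW rats had 11.41, 11.21, 11.35, 11.30 and 11.23 on STD and 11.19, 11.26, 11.27, 11.23 and 11.13 on CAF. Every WKY rat on CAF lay above every WKY rat on STD, within the range of the LEW rats, whose groups overlapped. The interaction was 0.32 (SE 0.06, adjusted p = 0.515), from 0.23 in WKY and −0.08 in LEW rats. Grhl3 (10880627), a grainyhead-like transcription factor known from epithelia, measured 7.83, 7.71, 7.79, 7.45 and 7.67 in WKY STD and 7.89, 8.11, 8.01, 8.19 and 8.10 in WKY CAF rats. It measured 7.53, 7.75, 7.65, 7.29 and 7.60 in LEW STD and 7.15, 7.31, 7.38, 7.38 and 7.48 in LEW CAF rats. The WKY groups did not overlap while the LEW groups did, and the interaction was 0.59 (SE 0.12, adjusted p = 0.515), from 0.37 and −0.22.

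Hipk1 (10825580), a nuclear kinase that binds homeodomain proteins, had an interaction of 0.29 (SE 0.06), from 0.22 in WKY and −0.07 in LEW rats, and its WKY groups did not overlap. A second probe set of Hipk1 gave 0.17 (SE 0.06). Prkacb (10940456), a catalytic subunit of protein kinase A, measured 10.20, 10.37, 10.30, 10.45 and 10.44 in LEW STD and 10.07, 10.17, 10.20, 10.13 and 10.08 in LEW CAF rats. The WKY rats had 10.45, 10.26, 10.32, 10.16 and 10.14 on STD and 10.28, 10.57, 10.57, 10.48 and 10.40 on CAF. The LEW groups met at 10.20 and the WKY groups overlapped, in opposite directions, with effects of 0.20 in WKY and −0.22 in LEW rats. The interaction was 0.42 (SE 0.09), but another probe set of Prkacb gave −0.02. Pbxip1, which binds PBX homeodomain proteins, had 0.28 (SE 0.07), from 0.24 and −0.04. Cactin, known as a regulator of splicing and of NF-κB signalling, had 0.26 (SE 0.06), from 0.18 and −0.08.

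Others are enzymes. Chst10 (10927603), a sulphotransferase of cell surface carbohydrates, measured 7.80, 7.75, 7.84, 7.74 and 8.03 in WKY STD and 8.15, 8.13, 8.18, 8.35 and 8.45 in WKY CAF rats. The LEW rats had 6.86 to 7.09 on STD and 6.76 to 7.20 on CAF. The LEW groups overlapped at a lower level, the WKY groups did not overlap, and the interaction was 0.48 (SE 0.12, adjusted p = 0.707), from 0.42 and −0.06. Phkb, a regulatory subunit of the kinase that activates glycogen breakdown, had 0.38 (SE 0.09), from 0.20 and −0.18, without overlap of the WKY groups. Abhd8 had 0.27 (SE 0.06), from 0.13 and −0.14. B3gnt5, a glycosyltransferase of glycosphingolipid synthesis, had the largest positive difference among the transcripts of 1 symbol at P under 0.01, 0.60 (SE 0.16), from 0.30 and −0.31. WKY STD rat 1, at 9.41, was far above the other WKY STD rats at 8.71 to 8.87.

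Cntf, a cytokine of neurons and glia, had an interaction of 0.36 (SE 0.09), from 0.17 in WKY and −0.19 in LEW rats, and here the LEW groups did not overlap. P of Cntf was 0.01 or above without the 4 arrays of a high heat shock mean. Lgr4, a receptor for R-spondins that enhances Wnt signalling, had 0.49 (SE 0.16), from 0.27 and −0.22. Trim59, a TRIM family protein, had 0.51 (SE 0.17), nearly all from a difference of −0.46 in LEW rats. Leaving out 1 array took P to 0.01 or above for 9 of the 20 arrays for Lgr4 and for 14 for Trim59. The monocyte or neutrophil covariate did so for both genes. A probe set of the ribosomal protein gene Rpl21 gave 0.60 (SE 0.19), whereas its 18 other probe sets gave −0.48 to 0.26. Leaving out LEW CAF rat 4, WKY STD rat 3 or WKY CAF rat 1 took P of that probe set to 0.01 or above.

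**Figure D3:**
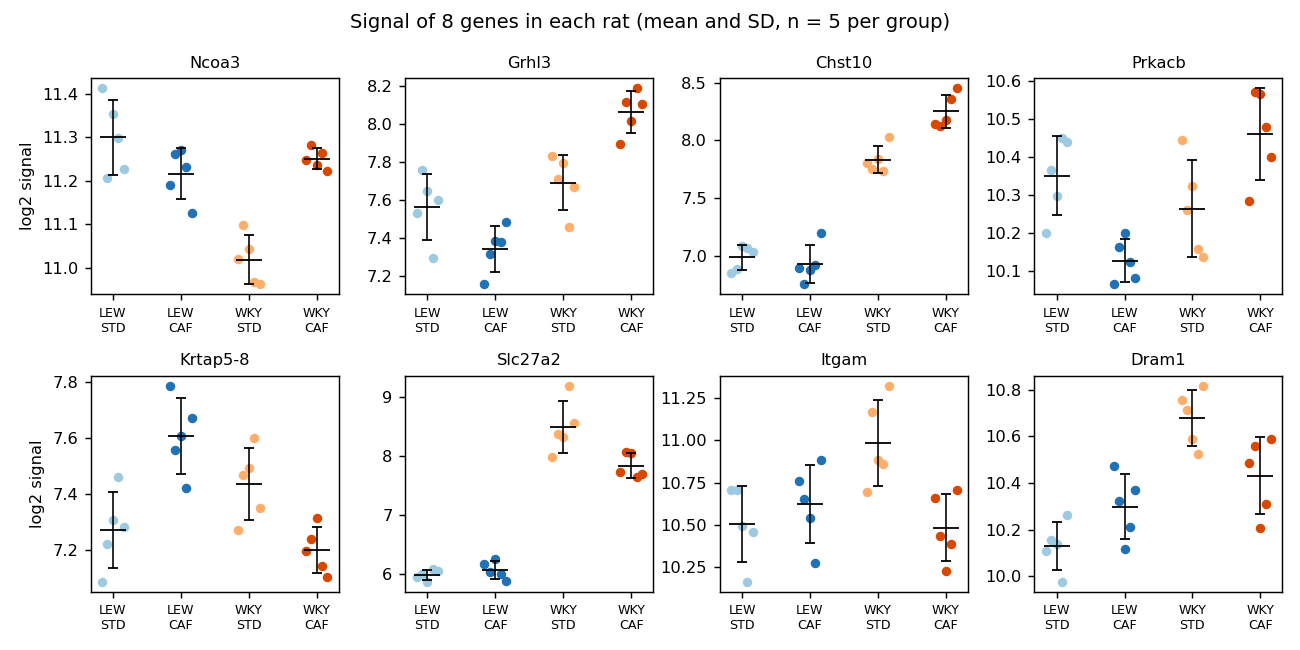
Points are the log2 signals of single rats and bars the mean and SD of the 5 rats in each group, for 4 genes with a positive interaction (top) and 4 with a negative one (bottom), each on its own y axis that does not start at 0. WKY rats on CAF lay apart from WKY rats on STD for Ncoa3, Grhl3 and Chst10, and the groups of a strain overlapped or touched for the other 5 genes.

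The smallest P of all belonged to a negative gene, Krtap5-8 (10712445), a keratin-associated protein of hair. It measured 7.09, 7.22, 7.31, 7.46 and 7.28 in LEW STD and 7.79, 7.55, 7.61, 7.42 and 7.67 in LEW CAF rats. The WKY rats had 7.27, 7.47, 7.49, 7.60 and 7.35 on STD and 7.20, 7.24, 7.31, 7.14 and 7.10 on CAF. The groups of each strain overlapped through 1 rat each, in opposite directions, and the interaction was −0.57 (SE 0.11, adjusted p = 0.515), from −0.24 in WKY and 0.34 in LEW rats. The other 4 probe sets of Krtap5-8 gave −0.11 to 0.05. Several further negative genes were dim, namely Ly6i (mean signal 4.79, interaction −0.33), Cyp1b1, a cytochrome P450 (5.41, −0.30), Vash2, a tubulin carboxypeptidase (5.6, −0.33), Kcna1, a voltage-gated potassium channel (5.70, −0.29) and Inhbe, an activin subunit (5.80, −0.29), all at P under 0.002. For Ly6i, Vash2 and Kcna1 the LEW groups did not overlap and the larger effect was the positive one in LEW rats. P of Kcna1 was 0.01 or above without the 4 arrays of a high heat shock mean.

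Other negative genes were brighter. Slc27a2 (10839443), a fatty acid transporter that also activates long-chain fatty acids, measured 7.99, 8.38, 8.32, 9.19 and 8.56 in WKY STD and 7.73, 8.07, 8.05, 7.64 and 7.69 in WKY CAF rats. In LEW rats it stayed between 5.87 and 6.26. The WKY groups overlapped only through WKY STD rat 1, and the interaction was −0.73 (SE 0.21, adjusted p = 0.707), from −0.65 and 0.08. Dram1 (10901555), a lysosomal protein of autophagy, measured 10.76, 10.71, 10.59, 10.52 and 10.82 in WKY STD, 10.49, 10.56, 10.21, 10.31 and 10.59 in WKY CAF, 10.11, 10.16, 10.14, 9.98 and 10.26 in LEW STD and 10.47, 10.32, 10.12, 10.21 and 10.37 in LEW CAF rats. Both pairs of groups overlapped, with effects of −0.25 and 0.17 and an interaction of −0.42 (SE 0.12).

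Apobr, a macrophage receptor for lipoproteins, had an interaction of −0.29 (SE 0.08), from −0.20 in WKY and 0.08 in LEW rats. The TNF family ligand Tnfsf12 had −0.32 (SE 0.09), from −0.19 and 0.14, and its WKY groups did not overlap. Rhoc, a small GTPase of the cytoskeleton, had −0.31 (SE 0.09), from −0.12 and 0.19. Anpep, a membrane aminopeptidase of myeloid cells, had −0.64 (SE 0.22), from −0.57 and 0.07, and P was 0.01 or above without any 1 of 12 arrays. With the monocyte marker mean as a covariate P was 0.01 or above for Dram1, Inhbe, Apobr, Rhoc, Tnfsf12 and Anpep. For Dram1 it was so too without the 4 arrays of a high heat shock mean. Srek1ip1, of the splicing machinery, had −1.13 (SE 0.38, adjusted p = 0.743) and Elmod2, a GTPase-activating protein, −0.84 (SE 0.28, adjusted p = 0.743), from 1 probe set each. These 2 probe sets were dim, with mean signals of 5.41 and 6.65, both below the median. The other probe sets of these genes, at 9.12 and 8.72, gave 0.13 and 0.12. P was 0.01 or above for Srek1ip1 without any 1 of 11 arrays and for Elmod2 without any 1 of 12. It was so for both genes without the 4 arrays of a high heat shock mean.

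The study discusses Acss2, which makes acetyl-CoA from acetate and is controlled by SREBPs, and the plasma level of the protein of Ccl2, a monocyte chemoattractant. It also reports that the Ccl2 transcript showed no diet response in monocytes of WKY and LEW rats. Acss2 measured 8.80, 9.24, 9.14, 8.72 and 8.84 in LEW STD, 8.63, 9.30, 8.61, 8.60 and 8.62 in LEW CAF, 9.40, 9.09, 9.09, 8.92 and 9.19 in WKY STD and 9.46, 9.33, 9.24, 9.29 and 9.46 in WKY CAF rats. Its interaction was 0.41 (SE 0.18, adjusted p = 0.817), from 0.22 and −0.19, not at P under 0.01, and the groups of both strains overlapped. LEW CAF rat 2, with a high heat shock mean, was the highest of all LEW rats. The other arrays of a high heat shock mean were also the highest of their groups. These were LEW STD rats 2 and 3, at 9.24 and 9.14, and WKY STD rat 1, at 9.40. Without LEW CAF rat 2 the interaction was 0.55, and without all 4 arrays of a high heat shock mean 0.46, both at an unadjusted P under 0.01. Over the 33 alternatives, among them the heat shock mean as a covariate, the interaction of Acss2 ran from 0.34 to 0.55. It was at an unadjusted P under 0.01 in 5 of them. Why the value moved was not tested. Ccl2 measured 12.78 to 13.39 in LEW STD, 12.25 to 13.44 in LEW CAF, 13.34 to 13.67 in WKY STD and 13.36 to 13.66 in WKY CAF rats. Its interaction was 0.19 (SE 0.22, adjusted p = 0.933).

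Cell types and programmes were described with 30 gene lists. For comparison, 49.2% of all 14497 genes had a negative interaction, with a median of 0.00. Over transcripts the median changed with signal, being −0.01, −0.03, −0.03, 0.02 and 0.03 from the dimmest to the brightest bin. Only the ribosomal protein list is set beside the median of a signal bin below, and no list was set against genes matched for signal. The genes of a list were measured in the same rats, so a common sign is not that of independent observations. No member of a list passed the adjusted p, and members at P under 0.01 are said to be so, the other members named being those of the next smallest P. Of all genes, 1.06% had a positive and 0.462% a negative interaction at P under 0.01. Single members at this P are therefore given for their values and not as results about their list. Centring the arrays moved every list median by the same 0.02, as it did that of all transcripts. It therefore cannot show how a list stands against other genes. Quantile normalisation moved no list median by more than 0.02. The sign turned for 4 lists, all close to 0. These were glycolysis and JAK–STAT genes with centring, and chemokines and insulin and nutrient sensing with quantile normalisation. In mixed cells, fewer cells of a type and less RNA per cell cannot be told apart.

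Transcripts of neutrophils, granulocytes that a density gradient removes in large part, had the largest median of the lists. All 19 were negative, with a median of −0.62, and 17 of them were down in WKY and up in LEW rats, as were 24.7% of all transcripts. The median diet effect was −0.27 in WKY and 0.30 in LEW rats. None passed P under 0.01. Retnlg, a resistin-like protein of neutrophils, measured 6.87, 8.21, 7.99, 7.24 and 7.70 in LEW STD, 7.55, 9.89, 8.42, 8.04 and 8.90 in LEW CAF, 10.03, 11.51, 11.15, 10.74 and 11.51 in WKY STD and 10.88, 10.48, 9.57, 10.65 and 10.89 in WKY CAF rats. The groups of each strain overlapped, and the interaction was −1.45 (SE 0.54, adjusted p = 0.800). Ceacam1, an adhesion molecule, had −0.49 (SE 0.17) and Cxcr1, a chemokine receptor, −0.23 (SE 0.10).

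The mean of the 19 neutrophil genes was 7.97, 8.42, 8.38, 7.95 and 8.32 in LEW STD, 8.23, 9.12, 8.34, 8.19 and 8.73 in LEW CAF, 8.84, 10.06, 9.69, 9.35 and 10.07 in WKY STD and 9.56, 9.26, 8.78, 9.48 and 9.61 in WKY CAF rats. The groups of each strain overlapped and the strains lay further apart than the diets. The 19 genes were measured in the same rats, so their common sign is not that of 19 independent observations. The median of the list was −0.83 without WKY STD rat 1, the lowest of its group, and −0.47 without WKY CAF rat 3, the lowest of its group.

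Monocyte and macrophage transcripts were negative for 20 of 21 genes, with a median of −0.19. The median diet effect was −0.23 in WKY rats, where 5 genes were lower on CAF at P under 0.01 against 1.48% of all genes, and −0.02 in LEW rats, where none was. Itgam (10711268), an integrin chain of myeloid cells, was the only gene of the list at P under 0.01. It measured 10.69, 11.17, 10.89, 10.86 and 11.32 in WKY STD and 10.66, 10.44, 10.23, 10.39 and 10.71 in WKY CAF rats. In LEW rats it measured 10.71, 10.71, 10.49, 10.16 and 10.46 on STD and 10.76, 10.65, 10.54, 10.27 and 10.89 on CAF. The WKY groups overlapped by a narrow margin and the LEW groups throughout, and the interaction was −0.62 (SE 0.19, adjusted p = 0.707), from −0.50 and 0.12. With the monocyte mean as a covariate it was −0.33 and no longer at P under 0.01, nor was it with the neutrophil mean. The monocyte mean holds Itgam itself, so a smaller value under that covariate is in part built in. The Fc receptor Fcgr1a had −0.59 (SE 0.24) and the lysosomal Cd68 −0.36 (SE 0.15), while Lyz2 and Cd14, chosen after their values were seen, had −0.06 and −0.14.

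All 12 B cell genes were positive, with a median of 0.19, from 0.18 in WKY and −0.02 in LEW rats. Ebf1, a transcription factor that specifies B cells, measured 10.74, 10.49, 10.50, 10.50 and 10.47 in WKY STD and 10.90, 10.76, 10.77, 10.90 and 10.85 in WKY CAF rats. The LEW rats had 10.73, 10.66, 10.69, 10.20 and 10.68 on STD and 10.42, 10.52, 10.24, 10.69 and 10.50 on CAF. Every WKY rat on CAF exceeded every WKY rat on STD, while the LEW groups overlapped, and the interaction was 0.42 (SE 0.13, adjusted p = 0.711). It was the only gene of the list at P under 0.01, and without the 4 arrays of a high heat shock mean, or with the monocyte covariate, it was not. Vpreb3, another gene of the B cell lineage, had 0.44 (SE 0.17) and the B cell receptor chain Cd79b 0.27 (SE 0.13).

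T cell genes were positive for 15 of 20, with a median of 0.11, and platelet genes for 11 of 12, with a median of 0.12, none at P under 0.01. Cd8b, a coreceptor chain of cytotoxic T cells, had 0.32 (SE 0.13). The T cell median was 0.06 without LEW CAF rat 2 or WKY STD rat 3 and 0.00 with the monocyte covariate. The platelet median was 0.21 without WKY CAF rat 1 and −0.03 without LEW STD rat 4, whose platelet mean of 12.27 was the highest of all rats. Natural killer (NK) cell genes were mostly negative, 13 of 15 cytotoxic genes with a median of −0.10 and 16 of 19 receptor genes with a median of −0.13. Ncr1, an activating NK receptor, had −0.69 (SE 0.25) and the chemokine Xcl1 −1.15 (SE 0.48, adjusted p = 0.817), from −1.16 in WKY and −0.01 in LEW rats. The NK cytotoxic mean was 9.83, 10.10, 10.01, 10.43 and 10.33 in WKY STD and 9.84, 9.80, 9.86, 9.76 and 9.75 in WKY CAF rats, so that the groups overlapped only through WKY STD rat 1. The median interaction of the list was −0.22 without that rat and −0.05 without WKY STD rat 5, and that of the receptor genes ranged from −0.19 without WKY STD rat 3 to −0.07 without WKY STD rat 4. Dendritic cell genes were balanced, with 8 of 12 positive and a median of 0.03, and Xcr1, a receptor of cross-presenting dendritic cells, was at P under 0.01 with −0.30 (SE 0.10). P of Xcr1 was 0.01 or above without any 1 of 6 arrays, without the 4 arrays of a high heat shock mean and with the monocyte covariate.

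Red cell genes were negative for 16 of 22, with a median of −0.27. Here both diet effects were positive, with a median of 0.17 in WKY and 0.43 in LEW rats, and no gene passed P under 0.01. The mean of the list was 8.15, 8.55, 9.05, 9.62 and 8.99 in LEW STD and 9.47, 9.51, 9.74, 8.85 and 8.94 in LEW CAF rats. It was 8.47, 8.49, 8.85, 8.21 and 8.35 in WKY STD and 8.67, 8.61, 8.12, 8.90 and 8.87 in WKY CAF rats. The groups of both strains overlapped. The median was −0.13 without LEW STD rat 1 and −0.43 without LEW STD rat 4, the lowest and the highest of that group, and 0.01 with the monocyte covariate.

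**Figure D4:**
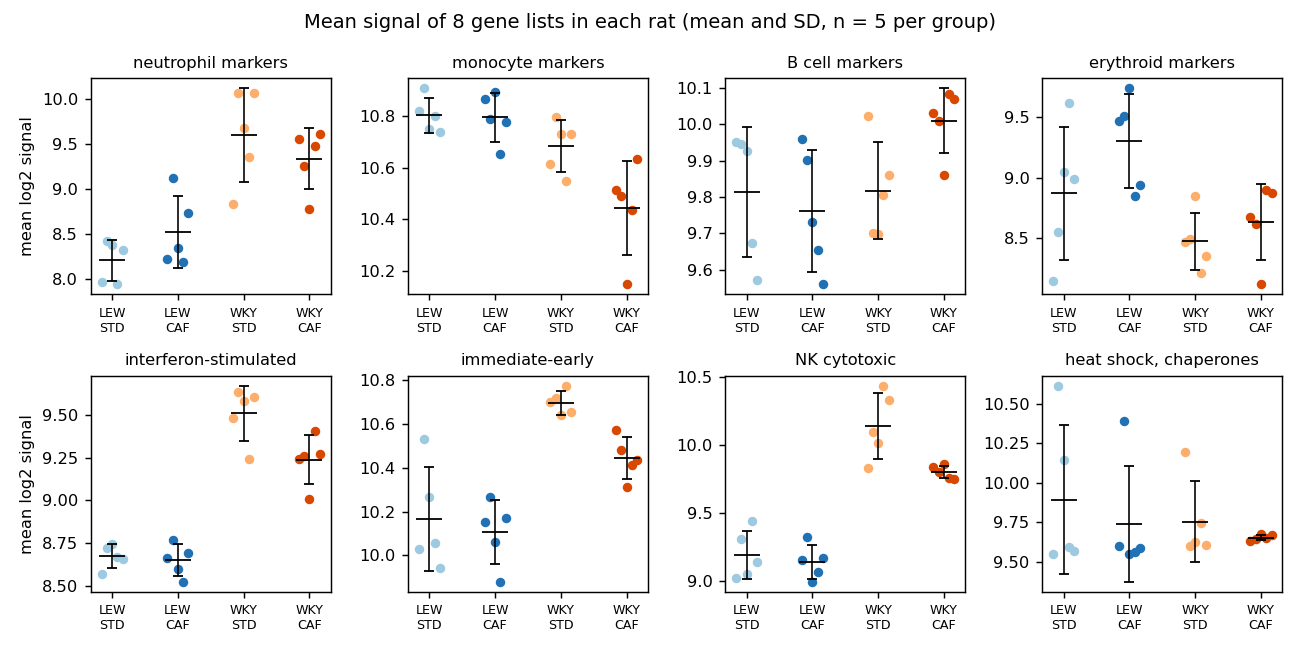
Points are the mean log2 signal of a gene list in single rats and bars the mean and SD of the 5 rats in each group, for 8 lists, each on its own y axis that does not start at 0. The groups of a strain overlapped for all lists shown except the immediate-early genes in WKY rats, and 4 arrays stood above the rest for the heat shock genes.

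Among immune programmes, interferon-stimulated genes were negative for 35 of 43, with a median of −0.17, from −0.24 in WKY and −0.06 in LEW rats. In WKY rats 10 of the 43 were lower on CAF at P under 0.01, against 1.48% of all genes. For the interaction Isg20 and Oas2 were lower at this P, against 0.462% of all genes. The exonuclease Isg20 measured 8.81, 9.46, 9.41, 9.31 and 9.82 in WKY STD and 8.84, 8.88, 8.67, 9.37 and 9.10 in WKY CAF rats. The LEW rats had 8.18, 8.48, 8.51, 8.63 and 8.46 on STD and 8.73, 8.86, 8.80, 8.54 and 8.60 on CAF. Groups overlapped in both strains, in opposite directions, and the interaction was −0.65 (SE 0.21, adjusted p = 0.727). Oas2, an antiviral oligoadenylate synthetase, had −0.33 (SE 0.11), from −0.39 and −0.06, and Rtp4 had −0.55 (SE 0.19). P was 0.01 or above without any 1 of 5 arrays for Isg20 and of 11 for Oas2. It was so for both with the monocyte or neutrophil covariate. For Oas2 it was so too with centred arrays, quantile normalisation or the erythroid covariate.

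Immediate-early genes, which cells switch on within minutes of a stimulus, were negative for 30 of 32, with a median of −0.21, from −0.23 in WKY and −0.04 in LEW rats. The mean of the list was 10.70, 10.72, 10.64, 10.77 and 10.65 in WKY STD and 10.57, 10.48, 10.31, 10.41 and 10.44 in WKY CAF rats. In LEW rats it was 10.03, 10.53, 10.27, 10.06 and 9.94 on STD and 10.15, 10.27, 10.06, 9.88 and 10.17 on CAF. The WKY groups did not overlap and the LEW groups did. Over the means of all 30 lists in both strains, this was the only pair of diet groups without overlap. It was picked out after all were seen, so the separation only describes the values. Rgs1, a brake on G protein signalling, had an interaction of −0.42 (SE 0.13, adjusted p = 0.732), from −0.45 and −0.03, and was the only gene of the list at P under 0.01. That P was 0.01 or above with centred arrays, with the neutrophil or monocyte covariate and without any 1 of 6 arrays. Zfp36, which destabilises cytokine mRNAs, had −0.29 (SE 0.12) and the pseudokinase Trib1 −0.45 (SE 0.20). The median of the list was −0.34 without the 4 arrays of a high heat shock mean and −0.10 without LEW CAF rat 2.

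Cytokines and mediators were negative for 20 of 25, with a median of −0.18, and Csf1, the growth factor of monocytes, had −1.21 (SE 0.57, adjusted p = 0.837). The median was −0.02 without LEW STD rat 4 and −0.32 without LEW STD rat 2. NF-κB targets and regulators were negative for 13 of 15 (median −0.10) and inflammasome and Toll-like receptor genes for 13 of 19 (median −0.10). The first median was −0.05 without WKY STD rat 2, LEW CAF rat 2 or WKY CAF rat 3 and −0.16 without LEW CAF rat 4, and it turned to 0.10 with the monocyte and 0.04 with the neutrophil covariate. The second was −0.04 without LEW STD rat 4 and turned to 0.04 with the monocyte covariate. Chemokines had a median of 0.01, JAK–STAT genes of 0.00 and MHC class II genes of 0.06. Socs5, an inhibitor of cytokine signalling, was at P under 0.01 with 0.25 (SE 0.07), from 0.16 and −0.09. It was not at this P with the monocyte covariate or without the 4 arrays of a high heat shock mean.

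The monocyte and neutrophil marker means moved with these lists. With the neutrophil mean as a covariate the median interaction was −0.11 for monocyte genes, −0.10 for interferon-stimulated genes, −0.07 for immediate-early genes and −0.01 for cytokines and mediators. With the monocyte mean as a covariate it was −0.19 for neutrophil, −0.07 for interferon-stimulated and −0.07 for immediate-early genes, and 0.05 for cytokines and mediators. The B cell median was 0.24 and 0.29 under these covariates. A covariate computed from the same arrays also takes up the diet effect that it shares with the genes, and the part of cell composition in these values was not tested.

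**Figure D5:**
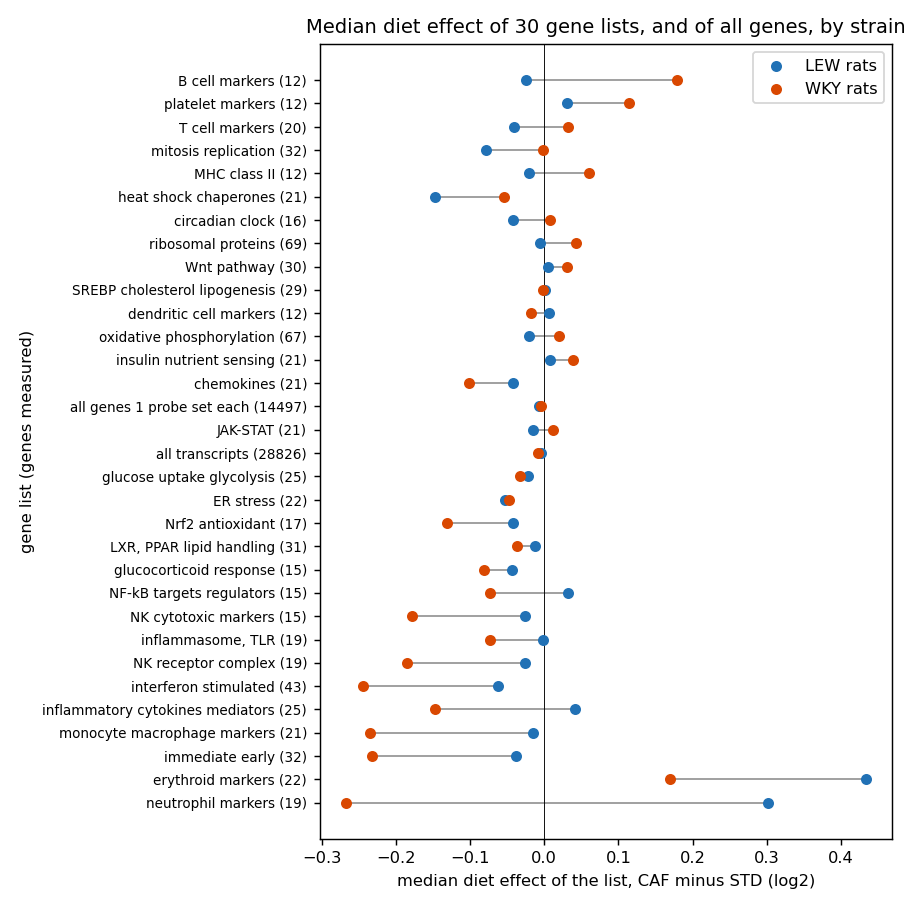
For each of 30 gene lists, and for all genes and all transcripts, points give the median CAF minus STD difference in log2 in LEW (blue) and WKY (orange) rats, and the line between them joins the strains. Lists are ordered by their median interaction, from neutrophil genes (−0.27 in WKY and 0.30 in LEW rats) at the bottom to B cell genes (0.18 and −0.02) at the top.

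Metabolic lists lay near the median of all genes. Targets of SREBPs, the regulators of cholesterol and fatty acid synthesis, had 16 of 29 positive and a median of 0.03. The desaturase Fads2 had 0.37 (SE 0.15) and fatty acid synthase Fasn 0.13 (SE 0.05). LXR and PPAR genes of lipid handling had 20 of 31 negative and a median of −0.06, with the lipid droplet protein Plin2 at −0.40 (SE 0.16), the lipolysis inhibitor G0s2 at −0.55 (SE 0.22) and the cholesterol exporter Abcg1 at 0.18 (SE 0.06). Glucose uptake and glycolysis had a median of −0.01 and insulin and nutrient sensing of 0.01. Each held 1 positive gene at P under 0.01, of 25 and of 21 genes, against 1.06% of all genes. Pfkfb3, which makes an activator of glycolysis, measured 10.17, 10.23, 10.34, 10.06 and 10.07 in WKY STD and 10.40, 10.52, 10.33, 10.38 and 10.41 in WKY CAF rats, groups that overlapped through 1 rat each. Its LEW values of 10.28 to 10.61 on STD and 10.29 to 10.49 on CAF overlapped throughout, and its interaction was 0.30 (SE 0.09, adjusted p = 0.707). Foxo1, a transcription factor that insulin inhibits, measured 11.66, 11.59, 11.51, 11.59 and 11.43 in WKY STD and 11.83, 11.81, 11.74, 11.86 and 11.69 in WKY CAF rats, groups that did not overlap. Its LEW groups overlapped, and its interaction was 0.29 (SE 0.09, adjusted p = 0.738). P of Foxo1 was 0.01 or above without any 1 of 10 arrays and with the monocyte, neutrophil or erythroid covariate, and that of Pfkfb3 without the 4 arrays of a high heat shock mean.

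Wnt pathway genes were positive for 19 of 30, with a median of 0.04, and Apc and Tcf7l1 were at P under 0.01. Apc, a scaffold of the complex that degrades β-catenin, had 0.27 (SE 0.08), from 0.15 and −0.12, and was not at this P with the monocyte or neutrophil covariate. Tcf7l1, a transcriptional repressor of the pathway, had −0.33 (SE 0.10), from −0.06 in WKY and 0.26 in LEW rats. Of its 2 other probe sets, 1 gave 0.06 (SE 0.08) and 1 gave −0.18 (SE 0.08), the latter in the same direction. Genes of mitosis and replication were positive for 23 of 32, with a median of 0.10, and the helicase subunit Mcm5 was at P under 0.01 with 0.24 (SE 0.08). The median was 0.05 without LEW CAF rat 2, and P of Mcm5 was 0.01 or above in 20 of 33 alternatives, among them the loss of any 1 of 13 arrays. Ribosomal protein genes were positive for 61 of 69, with a median of 0.05, against 0.03 over all transcripts of the brightest bin. Genes of oxidative phosphorylation were positive for 42 of 67, with a median of 0.02. None of the genes of these 2 lists was at P under 0.01. The clock genes had a median of 0.05, with Bmal1 at 0.16 (SE 0.07). Heat shock genes had 14 of 21 positive and a median of 0.05, which moved between −0.09 and 0.20 as single arrays were left out. The medians were −0.02 for genes of ER stress, −0.04 for antioxidant targets of Nrf2 and −0.09 for genes of the glucocorticoid response. The last was −0.14 without LEW STD rat 2 and 0.00 without LEW STD rat 5, and it turned to 0.04 with the monocyte covariate.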

How the data were processed

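RNA of 20 rats was measured on single-colour arrays, 1 per rat, in 4 groups of 5 taken from the sample labels. The authors deposited 1 table of normalised log2 signals. Its normalisation is RMA in the methods and MAS5 in the submitters' notes. Values of 3.57 to 14.4 were used as deposited, with no filter. The interaction was fitted in R 4.3.3 using limma 3.58.1 on the 4 group means (residual degrees of freedom 16, prior 3.67). Adjusted p values are Benjamini–Hochberg values across 28826 transcripts. The number of arrays limits the precision. Symbols came from the platform annotation, which gave 15209 transcripts 1 symbol, 306 several and 13311 none here. Lists used the brightest probe set of a gene. Named genes are the 10 positive and 10 negative of smallest P, the 5 largest each way at P under 0.01, the 3 of smallest P in each of 30 lists, Acss2 and Ccl2. The comparison, the genes and the lists were chosen with earlier results of these data known. Covariates, scaling, filters and left-out arrays served as alternatives. The procedure was tested on simulated data. Coordinates were not used here.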

Additional observations from a re-analysis of the deposited data

Results flagged for a closer look

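Single rats stood apart from the other 4 rats of their group in 30 of the 588 groups of 5 checked, over all named genes and the list means, where chance alone gives about 1 in 20. In the mean of the heat shock list, LEW CAF rat 2 stood at 10.39 with the others at 9.55 to 9.60, and WKY STD rat 1 at 10.2 with the others at 9.60 to 9.75. LEW CAF rat 2 also stood at 9.303 for Acss2 (others 8.60 to 8.63), 11.74 for Hspa4 (others 11.17 to 11.27) and 7.952 for Fads2 (others 8.39 to 8.45). WKY STD rat 1 also stood at 9.409 for B3gnt5 (others 8.71 to 8.87) and 10.74 for Ebf1 (others 10.47 to 10.50).

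Among LEW STD rats, rat 4 stood apart at 10.2 for Ebf1, 11.32 for Me1, 8.764 for Rptor and 11.32 for Rpl8. Rat 2 of that group stood apart at 9.173 for Cebpd, 10.25 for Tsc22d3 and 9.2 for Bmal1, and rat 3 at 11.25 for Socs5. Among LEW CAF rats, Fcgr1a was 10.38 in rat 1, Ccl6 was 12.44 in rat 5 and G0s2 was 9.735 in rat 4. Among WKY STD rats, rat 2 stood apart at 11.59 for Cd68, 12.63 for Pf4 and 10.32 for the mean of the insulin and nutrient-sensing list, and rat 4 at 8.933 for Cebpd. Among WKY CAF rats, Cyp1b1 was 5.517 and Cxcr1 6.814 in rat 4, and Rpl21 was 4.815, Car1 6.037 and Cebpd 8.656 in rat 3. In WKY CAF rat 5, Cd8b was 10.32, Jak1 12.4 and the mean of the ribosomal protein list 12.28.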

How the results depend on the processing

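No transcript passed the adjusted p for the interaction under any of the 33 alternatives. The count at P under 0.01, 376 as reported, was 227 with only transcripts above the median signal and 234 with only those of 1 symbol, which test fewer transcripts, and 596 with array weights. It ranged from 291 to 583 when 1 array was left out, the highest without WKY STD rat 1, and from 266 to 424 under the other alternatives. The count for the diet in LEW rats, 307, was 142 above the median signal and 134 with 1 symbol. That in WKY rats, 762, was 499 with 1 symbol and 428 with the monocyte covariate. With that covariate 3 of the genes at P above 0.01 changed sign, Bcl2a1 to 0.0497, Tnip1 to 0.0213 and Gpx1 to 0.13. The causes were not tested. The labels do not say whether replicate numbers pair rats of different groups, and these values do not settle it. Deviations of same-numbered rats had a median correlation of 0.06, against −0.02 for rats of other numbers. The correlation exceeded 0.1 for 9 of 30 same-numbered pairs and for 21 of 120 other pairs. Of 20 arrays, 5 correlated best with an array of their own number. A replicate block gave 424 transcripts at P under 0.01 and none at the adjusted p for the interaction. For the diet in WKY rats alone, 1 transcript passed the adjusted p with the replicate block (Chst10, adjusted p = 0.0399) and 1 unnamed one without WKY CAF rat 4. The alternative without the 4 arrays of a high heat shock mean was chosen after seeing the data. List medians were not recomputed for the filtered alternatives. The median standard error was 0.0805 in the dimmest of 5 bins of signal and 0.0975 in the brightest, and signal over background was not measured here.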
